A study of Mus musculus with 70 samples.

Results

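The 10 genes described here encode bone morphogenetic protein (BMP) ligands (*Bmp2*, *Bmp4*, *Bmp6* and *Bmp7*), secreted antagonists (*Chrd*, *Chrdl1* and *Nog*), receptors (*Bmpr1a* and *Bmpr2*) and a target of the pathway (*Id1*), 10 of the 22835 genes in the RNA-seq table of mouse pituitary. They were selected on measured values, since the group was drawn up around the higher *Bmp7* and lower *Chrdl1* RNA seen with T3, so the T3 contrast in wild-type mice is given for them as a description and was not tested. BMP ligands are secreted dimers that bring together type I and type II receptor kinases. The receptors phosphorylate SMAD proteins, which enter the nucleus with SMAD4 and switch on genes such as those of the ID family, and antagonists such as noggin and chordin bind the ligand outside the cell. In the pituitary, BMP signals act in the budding of Rathke's pouch and in the early choice between hormone cell types, and they influence hormone cells in the adult gland.

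The study asked how thyroid hormone and its receptor TRβ act on chromatin and transcription in the pituitary gland. RNA-seq covered whole pituitaries of adult males aged 2 to 4 months, labelled as strain C57BL/6J, each library from a pool of 3 glands. Hypothyroid (MMI) mice drank 0.05% methimazole with 1% potassium perchlorate (KClO4) for 4 or 5 weeks, and hyperthyroid (+T3) mice had the same water with 0.5 µg/ml T3 added in the last of these weeks. Wild-type mice gave 4 hypothyroid and 4 hyperthyroid libraries, and mice lacking *Thrb*, the TRβ gene (*Thrb*-KO, a germline deletion), gave 5 of each. Since both treatments include MMI and KClO4, no RNA library came from a euthyroid mouse.

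Binding of TRβ was mapped by chromatin affinity purification and sequencing (ChAP-seq) in untreated males. The 3 HAB;BirA libraries per tissue came from mice with a tagged receptor (Thrb^HAB/HAB) and the biotin ligase BirA from the Rosa26 locus, and the 3 control libraries from mice with BirA alone. A pituitary library held about 12 glands and a cerebral cortex library 2 mice. The labels give C57BL/6J for these mice, while the methods of the study describe mixed backgrounds. The characteristics of the untreated control libraries name the tagged allele, and the sample titles, which name BirA alone, were followed. Open chromatin was mapped by ATAC-seq in nuclei marked by Sun1-GFP under a *Thrb* b2Cre driver, in hypothyroid and hyperthyroid males. Each of these treatments had 4 ATAC-seq libraries. The methods of the study describe these males as heterozygous for the driver and homozygous for the GFP allele. Their background was mixed, whereas the RNA libraries are labelled C57BL/6J. That driver limits the ATAC-seq peaks to cells with a history of TRβ2 expression, whereas the RNA came from the whole gland.

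RNA levels are in counts per 1000000 reads (CPM), for the transcript of each gene with the highest mean. Libraries held 21453548 to 55273749 reads, so that 3 reads corresponded to 0.0543 to 0.140 CPM, and the lowest member value in any library was 20 reads (*Id1*). Of the 10 genes, 9 had CPM over 1 in all 18 libraries and were fitted with 13145 genes. *Id1*, at 0.932 CPM in 1 library, was fitted with the 14472 genes that passed this level in at least 4 libraries. Genes were called at an adjusted p under 0.05 in limma with at least a 1.5-fold change, and p-values measure the spread between pools, not between animals. The T3 contrast in wild type shares its hypothyroid or hyperthyroid libraries with each comparison of the genotypes. For the members, no p-value between genotypes is therefore independent of the choice of the group.

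The label of the *Thrb*-KO libraries could not be checked by the level of *Thrb* itself, whose transcript was at 271 CPM in hypothyroid and 260 CPM in hyperthyroid *Thrb*-KO pituitaries. Wild-type pituitaries had 257 CPM in hypothyroid and 104 CPM in hyperthyroid mice. A CPM is summed over all of a transcript, so it cannot tell if the deleted part was present. The *Thrb* response to T3 differed between genotypes by 1.26 on the log2 scale (limma adjusted p = 0.000322). Libraries also fell into 2 sets. Replicates 1 and 2 of every group had 2571 to 3420 CPM of *Lars2*, a mitochondrial tRNA synthetase gene, and replicates 3 to 5 had 53.2 to 95.1 CPM. Both sets contain all 4 groups. Hyperthyroid wild-type replicate 3 stood furthest from its group, with a Pearson correlation of log2(CPM + 1) as low as 0.974, against at least 0.9895 within hypothyroid wild type.

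In wild-type pituitaries the libraries of the 2 treatments did not overlap for 7 of the 10 genes, and this contrast had chosen the group. *Bmp6*, *Bmp7* and *Id1* were higher in every hyperthyroid library, where 6.17% of the 14472 genes separated in that direction. *Bmp2*, *Chrd*, *Chrdl1* and *Nog* were lower in every hyperthyroid library, where 12.2% of the genes separated that way. *Bmp4*, *Bmpr1a* and *Bmpr2* overlapped. All 3 antagonists were thus on the low side and both receptors overlapped, while the ligands went in different directions.

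**Figure D1:**
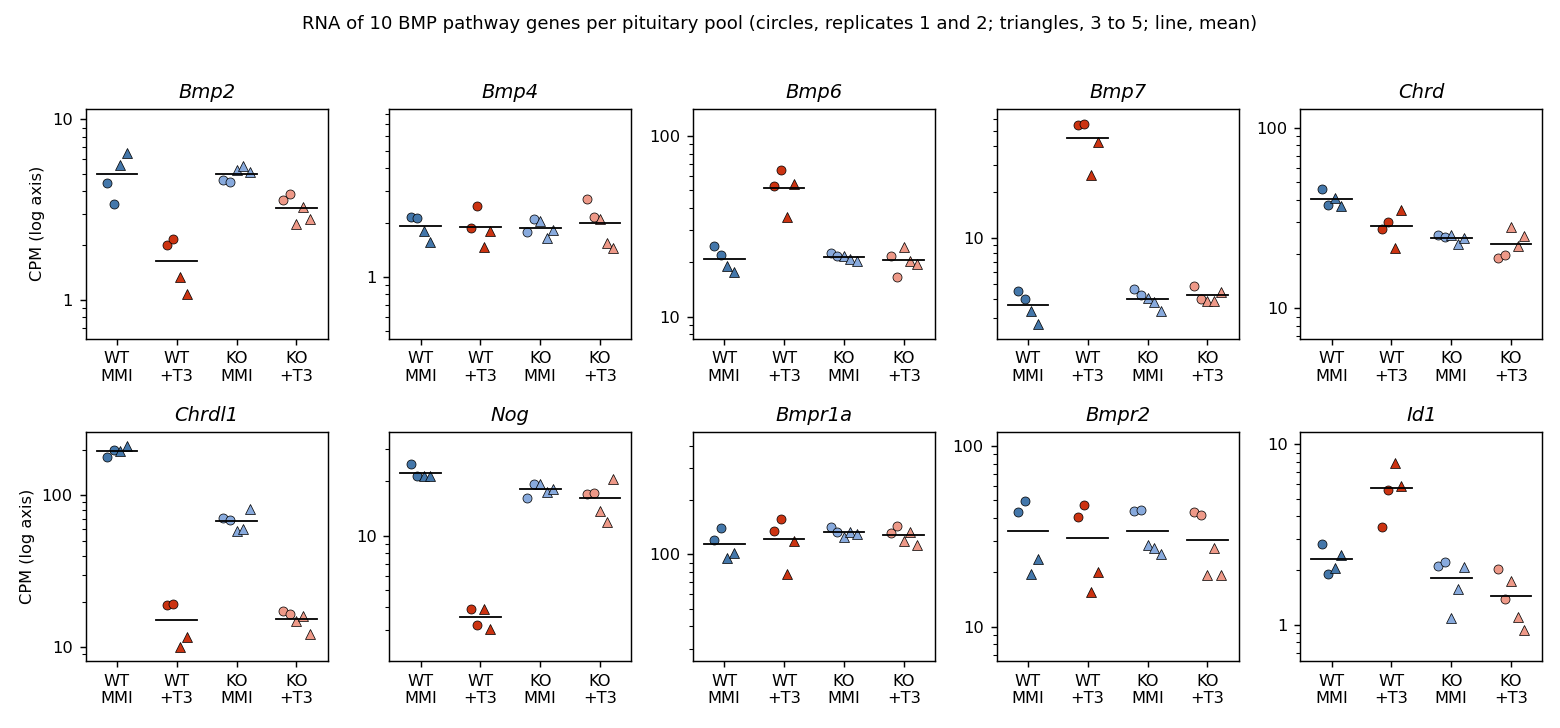
CPM of the 10 genes in each RNA library on log axes, by genotype (WT, wild type; KO, *Thrb*-KO) and treatment (MMI, hypothyroid; +T3, hyperthyroid). Circles are replicates 1 and 2, triangles replicates 3 to 5 and lines group means. *Bmp7* stands at 26.0 to 55.8 CPM in hyperthyroid wild type and at or below 4.89 CPM in every other library.

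*Bmp7* encodes a ligand that acts mainly through type I receptors with the type II receptors *Bmpr2* and *Acvr2a*. Its CPM was 4.51, 4.02, 3.33 and 2.76 in hypothyroid wild-type libraries. Hyperthyroid wild-type libraries had 54.7, 55.8, 26.0 and 42.6 CPM. All 4 hyperthyroid libraries lay far above the hypothyroid ones, and the lowest of them was replicate 3. Hypothyroid *Thrb*-KO libraries had 4.68, 4.22, 4.03, 3.85 and 3.36 CPM, and hyperthyroid ones 4.89, 3.98, 3.88, 3.91 and 4.47 CPM. The *Thrb*-KO groups overlapped with each other and with hypothyroid wild type. Means were 3.65 ± 0.770 (SD, n = 4) and 44.8 ± 13.9 (n = 4) CPM in wild type, a 12.3-fold difference, and 4.03 ± 0.487 (n = 5) and 4.23 ± 0.442 (n = 5) CPM in *Thrb*-KO. On the log2(CPM + 1) scale the T3 difference was 3.25 in wild type and 0.06 in *Thrb*-KO, and the difference between these responses was -3.20. Between genotypes, hyperthyroid *Thrb*-KO libraries were lower by a log2 difference of -3.07, with all 5 *Thrb*-KO libraries below all 4 wild-type libraries. In hypothyroid mice the genotypes overlapped (log2 difference 0.12). These genotype values of *Bmp7* were not tested, because they share libraries with the contrast that chose it.

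*Bmp6* encodes a ligand of the same subfamily as *Bmp7*, best known for control of iron balance through hepcidin. It stood at 24.5, 22.0, 18.9 and 17.7 CPM in hypothyroid and 52.7, 64.5, 35.8 and 54.3 CPM in hyperthyroid wild-type libraries. The hyperthyroid libraries were all above the hypothyroid ones, with replicate 3 again the lowest. *Thrb*-KO libraries had 22.5, 21.5, 21.5, 20.9 and 20.3 CPM in hypothyroid mice, and 21.7, 16.5, 24.4, 20.2 and 19.4 CPM in hyperthyroid mice. The *Thrb*-KO treatments overlapped (log2 difference -0.07, limma adjusted p = 1), and hypothyroid *Thrb*-KO libraries lay within the range of hypothyroid wild type. Mean CPM was 20.8 ± 3.07 (SD, n = 4) and 51.8 ± 11.9 (n = 4) in wild type, a 2.49-fold difference. The genotypes differed in hyperthyroid mice, where the log2 value was -1.28 ± 0.14 (SE) in *Thrb*-KO against wild type with a limma adjusted p of 4.4e-06. In hypothyroid mice this difference was 0.05 (limma adjusted p = 0.907). Both comparisons share wild-type libraries with the T3 contrast, so their p-values are not independent of the choice of the group.

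*Bmp2*, a ligand that binds BMPR1A with high affinity, was at 4.42, 3.38, 5.56 and 6.49 CPM in hypothyroid and 2.00, 2.17, 1.34 and 1.07 CPM in hyperthyroid wild-type libraries. Every hyperthyroid library lay below every hypothyroid one. In *Thrb*-KO, hypothyroid libraries had 4.61, 4.52, 5.23, 5.49 and 5.08 CPM and hyperthyroid libraries 3.56, 3.84, 2.62, 3.25 and 2.80 CPM. These *Thrb*-KO groups did not overlap either, and hyperthyroid *Thrb*-KO libraries stood between the wild-type treatments, except that hypothyroid wild-type replicate 2, at 3.38 CPM, lay inside their range. The log2 T3 difference was -1.17 in wild type and -0.51 ± 0.14 (SE) in *Thrb*-KO, where limma gave an adjusted p of 0.0875 (30 alternatives, 0.00885 to 0.388). DESeq2 on the recovered reads called it (log2 difference -0.62, adjusted p = 0.0458), and so did limma on replicates 3 to 5 alone (log2 difference -0.69, adjusted p = 0.00885). In hyperthyroid mice *Bmp2* was higher in *Thrb*-KO than in wild type by 0.68 ± 0.15 (SE) on the log2 scale, in 5 of 5 libraries (limma adjusted p = 0.00453). Without hyperthyroid wild-type replicate 4 this difference was 0.57, below 1.5-fold (limma adjusted p = 0.0207, the highest of 30 alternatives, whose lowest was 0.000792). The wild-type T3 difference also varied with the library set, at -0.66 in replicates 1 and 2 and -1.67 in replicates 3 and 4. As for *Bmp6*, the genotype p-values are not independent of the choice of the group.

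*Bmp4*, the ligand that starts pituitary budding in the embryo, was low in every library. It ranged from 1.56 to 2.14 CPM in hypothyroid and 1.46 to 2.47 CPM in hyperthyroid wild type, and from 1.64 to 2.09 CPM in hypothyroid and 1.44 to 2.69 CPM in hyperthyroid *Thrb*-KO. The 4 groups overlapped throughout. Its log2 T3 difference was -0.01 in wild type and 0.04 ± 0.12 (SE) in *Thrb*-KO (limma adjusted p = 1), and the genotypes differed by -0.01 in hypothyroid and 0.04 in hyperthyroid mice (limma adjusted p = 0.973 and 0.890).

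*Chrdl1* encodes chordin-like 1, a secreted protein with cysteine-rich repeats that binds BMPs. It was at 180, 200, 195 and 210 CPM in hypothyroid wild-type libraries and at 19.0, 19.2, 10.1 and 11.8 CPM in hyperthyroid ones. Hypothyroid *Thrb*-KO libraries had 71.2, 69.2, 58.5, 59.9 and 81.3 CPM, and hyperthyroid *Thrb*-KO libraries 17.3, 16.6, 14.9, 16.2 and 12.2 CPM. The hypothyroid groups were thus separate from each other and from both hyperthyroid groups, and the hyperthyroid groups overlapped. Means in hypothyroid and hyperthyroid mice were 196 ± 12.8 (SD, n = 4) and 15.0 ± 4.77 (n = 4) CPM in wild type and 68.0 ± 9.27 (n = 5) and 15.4 ± 1.99 (n = 5) CPM in *Thrb*-KO, with the hypothyroid mean 13.1-fold and 4.41-fold the hyperthyroid one. On the log2 scale the T3 difference was -3.67 in wild type and -2.07 in *Thrb*-KO, and the responses differed by 1.60. Between genotypes, hypothyroid *Thrb*-KO was lower by a log2 difference of -1.52, with all 5 libraries below all 4 wild-type libraries, and in hyperthyroid mice the difference was 0.08. For *Chrdl1* too the genotype values share libraries with the contrast that chose it and were not tested. The gene's other transcript in the table followed the same order, with means of 89.8, 10.0, 35.1 and 10.0 CPM in hypothyroid wild type, hyperthyroid wild type, hypothyroid *Thrb*-KO and hyperthyroid *Thrb*-KO.

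*Nog* encodes noggin, which binds BMP ligands and blocks their contact with receptors. Hypothyroid wild-type libraries had 24.9, 21.3, 21.4 and 21.4 CPM and hyperthyroid ones 3.91, 3.19, 3.93 and 3.04 CPM. In *Thrb*-KO the libraries had 16.1, 19.3, 19.3, 17.4 and 18.2 CPM in hypothyroid mice and 17.0, 17.3, 13.7, 11.8 and 20.6 CPM in hyperthyroid mice. Hyperthyroid wild type was the low group, below all 14 other libraries, and the *Thrb*-KO treatments overlapped. The wild-type means were 22.2 ± 1.77 (SD, n = 4) and 3.52 ± 0.473 (n = 4) CPM, with the hypothyroid mean 6.32-fold the hyperthyroid one. The log2 T3 difference was -2.37 in wild type and -0.18 ± 0.12 (SE) in *Thrb*-KO (limma adjusted p = 0.950), and the responses differed by 2.19. Hyperthyroid *Thrb*-KO exceeded hyperthyroid wild type by 1.90 ± 0.13 (SE) in 5 of 5 libraries (limma adjusted p = 1.13e-08). The wild-type libraries here are those of the T3 contrast, so this p-value is not independent of the choice of the group. In hypothyroid mice the *Thrb*-KO libraries were all below the wild-type ones, yet the log2 difference of -0.29 did not pass (limma adjusted p = 0.222).

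*Chrd* encodes chordin, which holds BMP ligands in an inactive complex until tolloid proteases cleave it. It was at 45.7, 37.3, 40.9 and 37.1 CPM in hypothyroid and 27.5, 29.9, 21.6 and 34.8 CPM in hyperthyroid wild-type libraries. The wild-type treatments did not overlap, by a narrow margin between 34.8 and 37.1 CPM. *Thrb*-KO libraries had 25.4, 24.7, 25.5, 22.6 and 24.5 CPM in hypothyroid mice and 18.9, 19.8, 28.2, 22.1 and 25.0 CPM in hyperthyroid mice, and these overlapped. The log2 T3 difference was -0.50 in wild type, and -0.11 in *Thrb*-KO (limma adjusted p = 1). Hypothyroid *Thrb*-KO was lower than hypothyroid wild type by -0.69 ± 0.13 (SE), in 5 of 5 libraries (limma adjusted p = 0.00164). Because the T3 contrast uses the same hypothyroid wild-type libraries, this p-value is not independent of the choice of the group. In hyperthyroid mice the genotypes overlapped at a log2 difference of -0.30 (limma adjusted p = 0.139). That value was -0.54 in replicates 1 and 2 (limma adjusted p = 0.000937), -0.13 in replicates 3 to 5 and -0.42 without hyperthyroid wild-type replicate 3 (limma adjusted p = 0.0201), all under the 1.5-fold limit. Genes annotated on the opposite strand overlap *Chrd* (*Thpo*), *Bmp6* (*Txndc5*), *Bmp4* and *Bmpr1a*, and whether their reads entered the values was not tested.

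Over all libraries both receptors overlapped in every comparison. *Bmpr1a*, the type I receptor ALK3, ranged from 95.7 to 141 CPM in hypothyroid wild type, 78.0 to 157 CPM in hyperthyroid wild type, 125 to 142 CPM in hypothyroid *Thrb*-KO and 112 to 143 CPM in hyperthyroid *Thrb*-KO. *Bmpr2*, the type II receptor, had 43.2, 49.7, 19.5 and 23.7 CPM in hypothyroid wild type, 40.4, 47.3, 15.5 and 20.1 CPM in hyperthyroid wild type, and 43.8, 44.4, 28.3, 27.4 and 25.2 CPM in hypothyroid *Thrb*-KO. Hyperthyroid *Thrb*-KO libraries had 43.2, 41.4, 19.4, 27.2 and 19.3 CPM of *Bmpr2*. Its values differed between the library sets, with replicates 1 and 2 at 40.4 to 49.7 CPM and replicates 3 to 5 at 15.5 to 28.3 CPM. Within a set, the log2 T3 difference of *Bmpr2* in wild type was -0.08 in replicates 1 and 2 and -0.27 in replicates 3 and 4. Within replicates 3 to 5 the hypothyroid genotypes did not overlap for either receptor, with *Thrb*-KO higher by 0.39 for *Bmpr1a* (limma adjusted p = 0.133) and 0.31 for *Bmpr2* (limma adjusted p = 0.257), against 0.07 and -0.07 in replicates 1 and 2. In hyperthyroid mice the genotype difference was 0.33 and 0.28 in replicates 3 to 5 and -0.08 and -0.05 in replicates 1 and 2. In the main fit, with every library in and no block, log2 differences were between -0.20 and 0.22 for both genes in all contrasts. Leaving out 1 library moved them as far as -0.42 (*Bmpr2*, T3 in wild type) and 0.32 (*Bmpr1a*, hypothyroid genotypes). The smallest limma adjusted p for them in the main fit was 0.503. It belonged to *Bmpr1a* in hypothyroid *Thrb*-KO against wild type, at a log2 difference of 0.22. Over the alternatives the smallest was 0.123, for *Bmpr1a* between hyperthyroid genotypes.

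*Id1*, an inhibitor of basic helix-loop-helix factors that BMP-activated SMADs induce in many cells, was at 2.80, 1.92, 2.07 and 2.43 CPM in hypothyroid and 3.46, 5.61, 7.91 and 5.89 CPM in hyperthyroid wild-type libraries. Its *Thrb*-KO values were 2.12, 2.23, 1.09, 1.58 and 2.08 CPM in hypothyroid mice and 2.04, 1.39, 1.74, 1.10 and 0.932 CPM in hyperthyroid mice. Every hyperthyroid wild-type library lay above all 14 others, and the *Thrb*-KO treatments overlapped. Means were 2.30 ± 0.391 (SD, n = 4) and 5.72 ± 1.82 (n = 4) CPM in wild type, a 2.48-fold difference. The log2 T3 difference was 0.99 in wild type and -0.21 in *Thrb*-KO (limma adjusted p = 1), and the responses differed by -1.20. In hyperthyroid mice *Id1* was lower in *Thrb*-KO by -1.44 ± 0.18 (SE), in 5 of 5 libraries (limma adjusted p = 1.77e-05). This comparison shares the hyperthyroid wild-type libraries with the T3 contrast, so its p-value is not independent of the choice of the group. The wild-type T3 difference was 0.70 in replicates 1 and 2 and 1.27 in replicates 3 and 4.

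Across the whole table, T3 raised 509 genes in wild type (3.87% of 13145) and lowered 735 (5.59%). The larger direction turned with the scaling, at 613 higher and 602 lower with TMM factors, 718 and 675 in edgeR and 756 and 683 in DESeq2. In *Thrb*-KO, 133 genes passed in either direction (1.01%). Of the members, *Bmp7* and *Chrdl1* were not tested in this contrast because T3 had chosen them. Among the other 7 fitted members limma called 0, and 1 of them (*Bmp2*) had an unadjusted p under 0.05. edgeR also called 0 of these 7 and DESeq2 called 1 (*Bmp2*), with 1 at an unadjusted p under 0.05 in each. *Id1*, fitted with more genes, was not called. By libraries, 2 of the 10 members separated downward with T3 in *Thrb*-KO (*Bmp2* and *Chrdl1*), where 3.76% of 14472 genes did so, and 0 separated upward, where 2.25% did. The difference between the responses was higher in *Thrb*-KO for 326 genes (2.48%) and lower for 234 (1.78%), and for the members it contains the contrast that chose them. The larger direction of that split was not stable, at 274 higher and 301 lower with TMM factors, 302 and 327 in edgeR, 348 and 384 in DESeq2, and 325 and 373 without hyperthyroid wild-type replicate 3. Its log2 values were 1.60 for *Chrdl1*, 2.19 for *Nog*, -1.33 for *Bmp6* and -3.20 for *Bmp7*, while *Bmp2* (0.65) and *Chrd* (0.39) had smaller ones.

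Between genotypes in hypothyroid mice, limma called 1 of the 7 fitted members other than *Bmp7* and *Chrdl1*. This was *Chrd*, lower in *Thrb*-KO, where 2.01% of all genes were lower and 1.01% higher. In hyperthyroid mice 3 of these 7 were called. *Bmp2* and *Nog* were higher in *Thrb*-KO, a direction called for 2.54% of genes, and *Bmp6* lower, a direction called for 2.32%. With CPM rescaled by TMM factors the whole-table split in hyperthyroid mice went from 334 higher and 305 lower genes to 247 and 374, and without hyperthyroid wild-type replicate 3 to 264 and 387. The wild-type libraries in both comparisons are the ones on which the group was chosen, so both counts carry that choice. The median log2 difference over the 9 members was 0.04 in hyperthyroid mice and 0.03 in hypothyroid mice, against 0.07 and 0.03 over all 13145 genes.

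**Figure D2:**
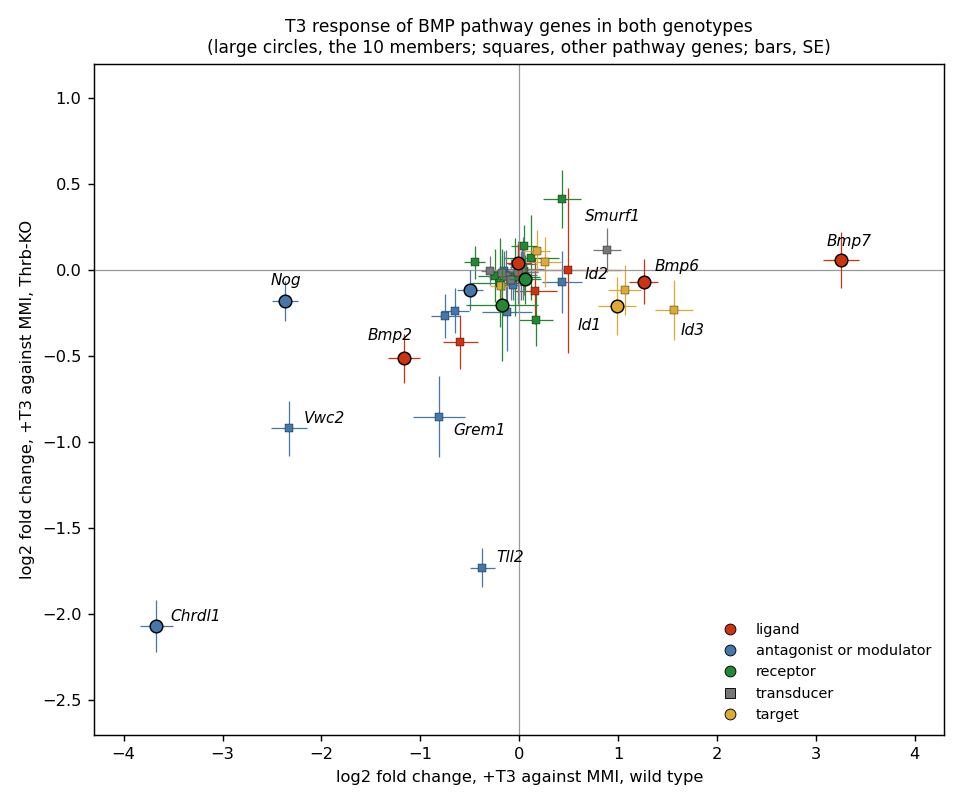
Log2 fold change (log2 of CPM + 1) of hyperthyroid against hypothyroid libraries in wild type (horizontal) and *Thrb*-KO (vertical) for the 10 members (large circles) and 36 other genes of the pathway (squares), coloured by role, with bars for the SE of the fit. *Bmp7*, *Bmp6*, *Id1*, *Id2*, *Id3* and *Smurf1* lie to the right near the horizontal axis, and *Chrdl1* and *Vwc2* lie low in both genotypes.

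The other genes of the pathway were read from a list of 55, of which 54 were in the table and 31 had CPM over 1 in all libraries. In wild type T3 raised 3 of these 31 (3.87% of all genes) and lowered 4 (5.59%). The median over the list was -0.05 on the log2 scale, against -0.04 over all genes. The 3 that rose are *Id2* and *Id3*, targets related to *Id1*, and *Smurf1*, a ubiquitin ligase that marks SMADs and receptors for breakdown. *Id2* went from 8.95 ± 1.61 (SD, n = 4) to 20.0 ± 4.40 (n = 4) CPM, and *Id3* from 3.56 ± 0.879 to 12.8 ± 4.17 CPM. *Smurf1* went from 39.3 ± 5.98 to 74.7 ± 18.4 CPM. All 4 hyperthyroid libraries were above the hypothyroid ones for each of the 3. Their log2 changes were 1.07, 1.56 and 0.89 (limma adjusted p = 9.51e-05, 8.14e-06 and 0.000191).

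Of the 4 that fell, *Bmper*, a secreted modulator, went from 24.5 to 14.5 CPM (log2 -0.75, limma adjusted p = 0.000892) and *Fstl3*, a follistatin relative, from 9.93 to 5.99 CPM (log2 -0.65, limma adjusted p = 0.00305), each lower in 4 of 4 hyperthyroid libraries. *Fstl3* was at -0.55, under the 1.5-fold limit, without hyperthyroid wild-type replicate 2 and at -0.56 in replicates 3 to 5 alone, and *Bmper* was at -0.42 in replicates 1 and 2 alone. The ligand *Bmp3*, which opposes other BMPs, and the antagonist *Grem1* (gremlin 1) passed with overlapping libraries, at log2 -0.59 (limma adjusted p = 0.0232) and -0.81 (limma adjusted p = 0.0372). *Bmp3* no longer passed with CPM rescaled by TMM factors (log2 -0.54), in edgeR, in DESeq2, in replicates 1 and 2 alone (log2 -0.20), or without hypothyroid replicate 2 (log2 -0.55) or 4 (-0.54) or hyperthyroid replicate 3 (-0.43) or 4 (-0.49). *Grem1* no longer passed with the TMM factors (adjusted p = 0.0550 in limma), in edgeR (adjusted p = 0.0687), with no filter on low values, or without hypothyroid replicate 1 (log2 -0.72) or 2 (-0.64) or hyperthyroid replicate 3 (-0.77) or 4 (-0.60). Their limma adjusted p without 1 of these libraries was 0.0591 to 0.133.

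In *Thrb*-KO, limma called 0 of the 31 for T3, with 3 (*Bambi*, *Bmp3* and *Grem1*) at an unadjusted p under 0.05. edgeR called 0 and DESeq2 called 1 (*Grem1*), each also with 3 at an unadjusted p under 0.05. With the replicate number as a block, *Grem1* passed in limma (log2 -0.85, adjusted p = 0.00640), as it did without hyperthyroid *Thrb*-KO replicate 2 (log2 -1.02, adjusted p = 0.0259) and in replicates 3 to 5 alone (-1.19, adjusted p = 0.00235), against -0.34 (adjusted p = 0.299) in replicates 1 and 2. The difference between the responses was -0.04 (limma adjusted p = 0.996), at 0.48 in replicates 1 and 2 and -0.38 in replicates 3 to 5.

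The response to T3 differed between genotypes for 3 of the 31 genes, the same *Id2*, *Id3* and *Smurf1*, all lower in *Thrb*-KO (1.78% of all genes). The differences were -1.18 ± 0.22 (SE), -1.79 ± 0.26 and -0.77 ± 0.20 on the log2 scale (limma adjusted p = 0.00252, 0.000245 and 0.0236). *Id2* was at 7.79 and 7.21 CPM and *Id3* at 2.95 and 2.34 CPM in hypothyroid and hyperthyroid *Thrb*-KO, each overlapping between treatments. *Smurf1* was at 42.8 and 46.4 CPM there. For *Smurf1* this difference did not pass without hypothyroid wild-type replicate 3 (-0.72) or 4 (-0.70) or hyperthyroid wild-type replicate 1 (-0.65) or 2 (-0.69), nor in replicates 3 to 5 alone (-0.64).

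Between genotypes, 2 of the 31 genes were called in hypothyroid mice, both lower in *Thrb*-KO (2.01% of all genes were lower). *Bmp3* was at 2.29 ± 0.325 (SD, n = 5) against 8.23 ± 1.04 (n = 4) CPM (log2 -1.49, limma adjusted p = 1.16e-05), and *Smad9*, a SMAD that transduces BMP signals, at 4.16 ± 0.814 against 10.5 ± 1.93 CPM (log2 -1.16, limma adjusted p = 0.000871). Both stayed lower in hyperthyroid mice, at log2 -1.31 and -1.19 (limma adjusted p = 3.1e-05 and 0.000401). In both treatments all 5 *Thrb*-KO libraries were below the 4 wild-type ones for both genes. The hyperthyroid comparison called 6 of 31, all lower (2.32% of all genes), the others being *Id2* (-1.35), *Id3* (-2.00), *Smurf1* (-0.64) and *Dand5* (-0.60). For *Smurf1* the difference was -0.53 without hyperthyroid wild-type replicate 1, -0.57 without replicate 2 and -0.41 in replicates 3 to 5 alone, all under the 1.5-fold limit. *Dand5*, an antagonist of the DAN family, had overlapping libraries and a limma adjusted p of 0.0469, which rose to 0.144 without hyperthyroid wild-type replicate 3 (log2 -0.35) and missed the threshold without most other single libraries. Its T3 difference in wild type, 0.43 (limma adjusted p = 0.162), passed without hyperthyroid wild-type replicate 1 (0.59, limma adjusted p = 0.0473) and in replicates 3 to 5 alone (0.63, limma adjusted p = 0.0426), and was 0.18 without hyperthyroid wild-type replicate 3. *Grem1*, at -0.59 in hypothyroid and -0.63 in hyperthyroid *Thrb*-KO against wild type (limma adjusted p = 0.203 and 0.120), passed in both with the replicate block (-0.62 and -0.66, limma adjusted p = 0.0326 and 0.0178). With the library set as the block both were under the 1.5-fold limit (-0.54 and -0.58, limma adjusted p = 0.0483 and 0.0269). In replicates 1 and 2 they were -1.08 and -0.61 (limma adjusted p = 0.000308 and 0.0119), and in replicates 3 to 5 -0.13 and -0.52 (limma adjusted p = 0.672 and 0.0619). The hyperthyroid difference of *Grem1* also passed in DESeq2 (-0.81), without hyperthyroid wild-type replicate 4 (-0.85) and without hyperthyroid *Thrb*-KO replicate 2 (-0.80).

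The filter that asks for CPM over 1 in all libraries drops genes that are near 0 in a group, so the same list was also read with the 14472 genes at this level in at least 4 libraries, where 36 of the 55 were fitted. There T3 changed 8 of 36 in wild type (10.4% of all genes in that fit) and 2 of 36 in *Thrb*-KO (1.33%), and the responses differed for 5 of 36 (5.13%). Between genotypes 4 of 36 were called in hypothyroid (3.54%) and 7 of 36 in hyperthyroid mice (5.65%). *Tll2*, which entered this fit through hypothyroid *Thrb*-KO alone, is in the counts for T3 in *Thrb*-KO, the responses and hypothyroid genotypes.

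*Vwc2*, a secreted chordin-like modulator also called brorin, was at 7.09 ± 2.29 (SD, n = 4) and 0.571 ± 0.223 (n = 4) CPM in hypothyroid and hyperthyroid wild type, and at 6.86 ± 1.31 (n = 5) and 3.14 ± 0.428 (n = 5) CPM in *Thrb*-KO. It fell in both genotypes, by log2 changes of -2.33 and -0.92 (limma adjusted p = 1.52e-08 and 0.00192), with a difference of 1.41 between them (limma adjusted p = 0.000824), and it was higher in hyperthyroid *Thrb*-KO than in wild type by 1.40 (limma adjusted p = 1.08e-05). *Tll2*, which encodes a tolloid-like protease, was at 3.23 ± 0.831 (SD, n = 5) CPM in hypothyroid *Thrb*-KO and at or below 0.580 CPM in every library of the other groups, so it passed the filter through that group alone. Its log2 difference was 1.54 between hypothyroid genotypes and -1.73 with T3 in *Thrb*-KO. These values are a description and not a test, since the filter had let the gene in through that group. The responses of *Tll2* differed by -1.36 in limma and by -1.63 in edgeR, which did not call it. This too is a description, because the responses include that group. With T3 in wild type the *Tll2* estimate was -0.37 in limma (adjusted p = 0.0443, under the 1.5-fold limit), -0.93 with a pseudocount of 0.25 (limma adjusted p = 0.00210) and -1.96 in edgeR (adjusted p = 0.000672). In hyperthyroid mice edgeR called it higher in *Thrb*-KO (1.23, adjusted p = 0.0382), while limma did not (0.18, adjusted p = 0.374). Both comparisons hold only libraries at or below 0.580 CPM, and the estimates changed with the pseudocount or the tool. No change of *Tll2* is concluded from them. *Bmpr1b*, a type I receptor, was at 3.06 ± 0.292 CPM in hypothyroid *Thrb*-KO against 1.38 ± 0.343 CPM in wild type (log2 0.78, limma adjusted p = 0.00459), higher in 5 of 5 libraries.

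Not every order of groups was the same in both library sets. *Chrdl1* averaged 19.1 CPM in hyperthyroid wild type and 16.9 CPM in hyperthyroid *Thrb*-KO in replicates 1 and 2, and 10.9 and 14.4 CPM in the remaining replicates. The T3 difference in wild type changed sign between sets for *Bmp4* (0.01 and -0.02) and *Bmpr1a* (0.16 and -0.04). In *Thrb*-KO it did so for *Chrd* (-0.35, limma adjusted p = 0.0468, and 0.05), *Bmp6* (-0.20 and 0.02), *Bmp4* (0.22 and -0.08), *Bmp7* (-0.01 and 0.10) and *Bmpr1a* (0.00 and -0.09). Between hypothyroid genotypes the sign also turned for *Bmp2* (0.19 and -0.16), *Bmp4* (-0.10 and 0.08), *Bmp6* (-0.07 and 0.18) and *Bmpr2* (-0.07 and 0.31). Between hyperthyroid genotypes it turned for *Chrdl1* (-0.17 and 0.37), *Bmpr1a* (-0.08 and 0.33) and *Bmpr2* (-0.05 and 0.28). In replicates 1 and 2 and in the remaining replicates, the log2 T3 difference in wild type was 3.42 and 3.09 for *Bmp7*, 1.29 and 1.22 for *Bmp6*, -3.24 and -4.10 for *Chrdl1*, and -2.40 and -2.33 for *Nog*. *Chrd* had -0.51 and -0.49. Without hyperthyroid wild-type replicate 3, added as an alternative after the values had been seen, these differences were 3.49 for *Bmp7*, 1.42 for *Bmp6*, -3.51 for *Chrdl1*, -2.41 for *Nog*, -1.11 for *Bmp2*, -0.38 for *Chrd* and 0.84 for *Id1*. The overlapping members had 0.07 (*Bmp4*), 0.26 (*Bmpr1a*) and 0.09 (*Bmpr2*), the *Bmp4* and *Bmpr2* values with their sign turned. All genes called in wild type numbered 1334 without that library, 650 higher, against 1244 with it.

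Markers of the cell types in the gland were read beside these values. Of 9 markers of hormone cells, T3 raised *Gh* and *Prl* and lowered *Cga* and *Tshb* in wild type, by log2 changes of 1.03, 1.70, -2.55 and -4.95 in limma. In *Thrb*-KO, limma called *Prl* (1.63), *Cga* (-2.11) and *Tshb* (-4.83). The list summed to 69711 to 98348 CPM in hypothyroid and 107583 to 224358 CPM in hyperthyroid wild-type libraries, and to 77026 to 93605 and 109338 to 136629 CPM in *Thrb*-KO, with *Gh* the most abundant. *Pou1f1*, a marker of the lineage of those cells, was higher in hyperthyroid *Thrb*-KO than in wild type at log2 0.63 (limma adjusted p = 0.0176), a call that neither edgeR nor DESeq2 made, while DESeq2 called *Prl* there. In bulk tissue, fewer cells of a type and less RNA per cell cannot be told apart, and the part of these markers in the values of the BMP genes was not tested.

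Among markers of other cells, *Csf1r* and *C1qa*, of 4 immune markers, were lower in hypothyroid *Thrb*-KO than in hypothyroid wild type (log2 -0.77 and -0.84 in limma), the comparison in which *Chrd* and *Chrdl1* were lower, and *C1qa* was also lower in hyperthyroid *Thrb*-KO (-0.62). edgeR and DESeq2 each called all 4 immune markers (also *Cd68* and *Ptprc*) in hypothyroid mice and 2 of them (*C1qa* and *Cd68*) in hyperthyroid mice. The immune list summed to 67.7 to 75.0 CPM in hypothyroid wild type and 37.7 to 46.5 CPM in hypothyroid *Thrb*-KO, and to 47.0 to 78.2 and 39.0 to 48.6 CPM in the hyperthyroid groups, with *Csf1r* the most abundant. Of 5 fibroblast markers, *Col1a2* was lower in hypothyroid *Thrb*-KO (-0.64) and *Col1a1* lower with T3 in wild type (-0.73). That list, led by *Col1a2*, summed to 295 to 371 CPM in hypothyroid and 227 to 360 CPM in hyperthyroid wild type, and to 274 to 294 and 279 to 309 CPM in *Thrb*-KO. The lists for folliculostellate and stem cells, endothelium, pericytes, pituicytes and erythrocytes gave 0 calls in limma over 95 tests (the 19 listed genes high enough to be fitted, in 5 contrasts). Of 9 at an unadjusted p under 0.05, 5 were with T3 in wild type (*Sox2*, *Cspg4*, *Nkx2-1*, *Oxt* and *Rax*) and 1 in each other contrast. There were 2 calls in edgeR (*Nkx2-1* and *Oxt*) and 1 in DESeq2 (*Nkx2-1*), all of them pituicyte and neural lobe markers with T3 in wild type. In hypothyroid wild type, hyperthyroid wild type, hypothyroid *Thrb*-KO and hyperthyroid *Thrb*-KO these lists summed to means of 92.3, 102, 91.2 and 93.4 CPM (led by *Aldoc*), 234, 207, 214 and 188 CPM (*Plvap*), 144, 133, 131 and 109 CPM (*Rgs5*), 42.0, 53.1, 51.7 and 52.1 CPM (*Col25a1*), and 74.2, 118, 64.2 and 95.4 CPM (*Hba-a1*). The erythrocyte sum separated between wild-type treatments, at 49.3 to 90.1 CPM in hypothyroid and 111 to 126 CPM in hyperthyroid libraries. It overlapped in *Thrb*-KO, at 42.5 to 101 and 43.8 to 140 CPM. Each marker listed was above 3 reads in some library, and the part of these cells in the BMP results was not tested.

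The genes with a pattern most like that of *Bmp7* over the 18 libraries, by Pearson correlation of log2(CPM + 1), were *Sspo* (0.991), *Cecr2* (0.991), *Acsl6* (0.988), *Cdc42ep2* (0.983) and *Cux2* (0.975). *Sspo*, which encodes SCO-spondin, had mean CPM of 2.97 and 104 in hypothyroid and hyperthyroid wild type and 2.84 and 2.87 in *Thrb*-KO. *Cux2*, a homeobox gene, had 9.74 and 33.9 CPM in wild type and 9.45 and 9.72 CPM in *Thrb*-KO. For *Chrdl1* the closest were *Vav3* (0.987), *Trhr* (0.979), *Omg* (0.974), *Nell2* (0.974) and *Bai3* (0.973). *Trhr*, the receptor for thyrotropin-releasing hormone, had 64.1 and 2.88 CPM in wild type and 24.8 and 5.24 CPM in *Thrb*-KO, with the groups in the same order as for *Chrdl1*. These correlations are descriptions over 18 libraries that share groups and library sets.

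Of the 10 genes, 3 (*Bmp6*, *Bmp7* and *Bmpr1a*) had a pituitary TRβ-HAB peak within 20 kb of the gene body, where 41.2% of 12772 fitted genes with a position had one. A cortex peak lay that near 2 of them (*Bmp4* and *Bmp6*; 34.9% of genes), and a T3-regulated ATAC peak near 2 (*Bmp6* and *Bmp7*; 7.71%). At both *Bmp6* and *Bmp7* a pituitary TRβ-HAB peak overlapped the T3-regulated ATAC peak, as at 4.2% of genes. The deposited ATAC list does not say whether a peak opened or closed with T3, and the TRβ-HAB peaks come from untreated mice. Of the 54 other pathway genes with a position, 17 had a pituitary TRβ-HAB peak within 20 kb, 11 a cortex peak and 2 (*Bmper* and *Dand5*) a T3-regulated ATAC peak. *Smurf1* had 4 pituitary peaks and *Id2* had 1 at 2694 bp, while the pituitary peak nearest to *Id3* was 165681 bp away. Cortex peaks were also near these genes, with 3 at *Smurf1*, 1 at 44 bp from *Id2* and 1 at 6812 bp from *Id3*.

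At *Bmp7* (minus strand, mm9 chr2:172693513-172765822) the pituitary TRβ-HAB peak was chr2:172767451-172767750, which starts 1629 bp upstream of the transcription start, and the ATAC peak chr2:172767466-172767654 lay inside it. The TRβ-HAB peak held 16 reads in the merged HAB;BirA libraries and 3 in the merged BirA libraries, a ratio of 4.45 as scaled by the authors, with an exact 95% interval of 1.27 to 23.8 for counting error. It was among the weaker peaks of the list, at rank 7892 of 8051 by p-value, and median counts over all pituitary peaks were 18 and 2 reads. The nearest cortex peak was 111163 bp from the gene.

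At *Bmp6* (plus strand, chr13:38436995-38592183) an intron held the pituitary peak chr13:38556351-38556650, with 33 HAB;BirA and 3 BirA reads, a ratio of 9.18 (interval 2.88 to 46.8), overlapping the ATAC peak chr13:38556450-38556783. This peak is 119356 bp into the gene and closer to the start of *Txndc5* (64043 bp), the neighbouring gene. Another intron peak, chr13:38500051-38500200, had 14 HAB;BirA and 0 BirA reads, at least 3.89-fold higher when 3 reads are taken as the floor of the merged control. A cortex peak lay 13368 bp beyond the 3′ end of *Bmp6*, with 12 and 0 reads. At *Bmpr1a*, which was called in no tested contrast, the peak chr14:35316401-35316650 covered the transcription start, with 17 HAB;BirA reads and 1 BirA read. The ratio as scaled by the authors was 14.2 (interval 2.22 to 593), but its control count lies under the floor of 3 reads.

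*Bmp4* had a cortex peak in an intron at chr14:47007051-47007250 (9 and 0 reads) and its nearest pituitary peak at 441657 bp. No peak of the 3 lists lay within 100 kb of *Chrdl1* (minus strand, chrX:139720217-139828805), whose nearest pituitary, cortex and ATAC peaks were 894617, 2110646 and 1539022 bp away. For *Nog* the nearest pituitary peak was 50352 bp from the gene, for *Chrd* 60150 bp, for *Bmp2* 108195 bp, for *Bmpr2* 178198 bp and for *Id1* 38937 bp. *Bmp2* had an ATAC peak at 59785 bp.

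**Figure D3:**
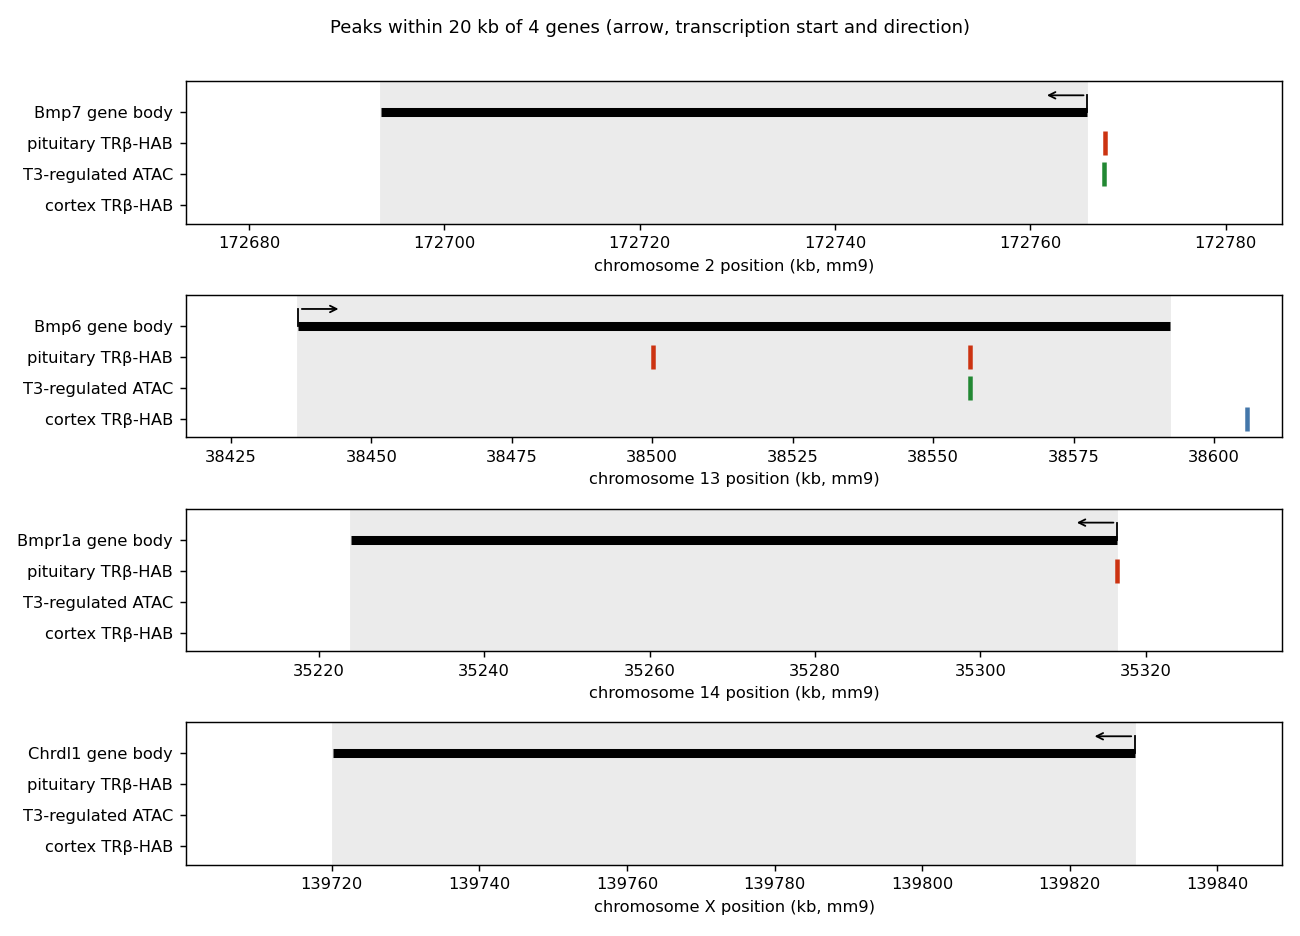
Maps of *Bmp7*, *Bmp6*, *Bmpr1a* and *Chrdl1* with 20 kb on either side (mm9, kb), showing gene bodies (black bars on grey), transcription starts (arrows) and peaks of the 3 lists as ticks at their centres (not to width). The pituitary TRβ-HAB and ATAC ticks coincide upstream of *Bmp7* and in an intron of *Bmp6*, and no tick appears at *Chrdl1*.

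A direct repeat of AGGTCA with a spacer of 4 bases (DR4), the classical element of thyroid hormone receptors, was sought on both strands with up to 2 mismatches over the 12 half-site bases. Such a match occurred in 20.9% of all pituitary TRβ-HAB peaks and in 2 of the 4 near members. The peak upstream of *Bmp7* held 11 of 12 matching bases at chr2:172767536-172767551 on the minus strand (TGGTCAccggAGGTCA), and matches this close occurred in 3.94% of pituitary peaks. The *Bmpr1a* peak held 10 of 12 at chr14:35316606-35316621 on the minus strand (AGGGTAtccgAGGTCA). Neither *Bmp6* peak had a match at this limit, the best having 9 of 12, which 55% of pituitary peaks reach. A match is a description of the letters and not evidence of binding. The mm9 plus-strand sequences of the peaks over T3-regulated ATAC peaks are printed because they set the closest match near a member beside a peak without any, and capitals mark the half-sites of DR4 matches with up to 2 mismatches, of which the *Bmp7* peak has 2.
*Bmp7* peak chr2:172767451-172767750: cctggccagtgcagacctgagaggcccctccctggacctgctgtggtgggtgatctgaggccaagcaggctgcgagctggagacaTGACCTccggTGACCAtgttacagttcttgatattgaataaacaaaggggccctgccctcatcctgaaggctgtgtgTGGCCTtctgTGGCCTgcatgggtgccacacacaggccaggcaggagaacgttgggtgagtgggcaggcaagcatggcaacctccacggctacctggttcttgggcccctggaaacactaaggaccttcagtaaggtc
*Bmp6* peak chr13:38556351-38556650: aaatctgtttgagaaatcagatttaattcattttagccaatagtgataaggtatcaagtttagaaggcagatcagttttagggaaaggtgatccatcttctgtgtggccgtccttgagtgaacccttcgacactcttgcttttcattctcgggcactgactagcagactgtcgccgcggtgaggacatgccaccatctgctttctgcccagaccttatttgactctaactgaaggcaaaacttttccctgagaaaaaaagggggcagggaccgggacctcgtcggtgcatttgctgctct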

How the data were processed

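The authors mapped 50-base single-end reads to RefSeq transcripts (mm9) and deposited CPM per transcript without a filter on low values. Whole reads were recovered from the deposited CPM. For ChAP-seq the authors merged libraries per genotype and called peaks with SICER 1.1 (50 bp windows, false discovery rate 1e-06). The deposited peak lists give a count of reads per peak in HAB;BirA and BirA libraries. The deposited p-value and false discovery rate of each peak are SICER's. The deposited ratio of HAB;BirA to BirA reads is a fold scaled by the authors. From the deposited ATAC list only other values, the positions, were used, since it gives an adjusted p without direction.

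Genes were fitted with limma 3.58.1 (eBayes with trend, R 4.3.3) on log2(CPM + 1) in 1 model of 4 groups with 5 contrasts, and p-values were adjusted over all genes fitted (Benjamini-Hochberg). edgeR 4.0.16 and DESeq2 1.42.0 on recovered reads were alternatives, as were pseudocount, filter, scaling, library sets, replicate block and leaving out each library. The fit was tested on simulated data, from which no value is given here. Peaks were placed with the GENCODE annotation of mm9 and read from the genome with pysam 0.24.0 in Python 3.11.15 (pandas 2.3.3, numpy 2.4.6, matplotlib 3.10.9). Members and lists were chosen with earlier results of these data known. Tests of *Bmp7* and *Chrdl1* between genotypes had been planned and are not given, because they share libraries with the contrast that chose these genes. All members, every listed pathway gene called in a contrast, and the 5 genes most correlated with *Bmp7* or *Chrdl1* are named, except for 1 pathway gene that is not reported here. Replicate numbers come from the sample titles. All 25 pairs of libraries with the same number had correlated deviations from their group means (0.130 to 0.815, median 0.529), but so had the 36 pairs of other numbers in the same library set (0.271 to 0.755, median 0.521), and only 5 of 18 libraries correlated best with their own number. The number was therefore used as a block only as an alternative, and its effect cannot be told from that of the set. Treated ChAP-seq, histone ChIP-seq and signal tracks were not used.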

Additional observations from a re-analysis of the deposited data

Results flagged for a closer look

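*Nog* in hypothyroid wild type had its highest library, replicate 1 at 24.9 CPM, apart from the others at 21.3 to 21.4 CPM. It was the only one of the 40 groups of member values with a library so far from the rest, and chance marks about 1 in 20 groups. The T3 response of some genes differed between *Thrb*-KO and wild type in a test of the difference itself. They were *Id2* (-1.18 on the log2 scale), *Id3* (-1.79), *Smurf1* (-0.77), *Vwc2* (1.41) and the receptor gene *Thrb* (1.26). The difference of *Tll2* (-1.36, not called in edgeR) is a description only, since this gene passed the filter through hypothyroid *Thrb*-KO alone.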

How the results depend on the processing

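Counts of called genes stayed within 1.5 times the reported 1244, 133, 560, 397 and 639 (T3 in wild type, T3 in *Thrb*-KO, difference of responses, hypothyroid and hyperthyroid genotypes), leaving out single libraries included, except in these cases. With no limit on the fold they were 2536, 235, 901 and 1586 (the difference of responses stayed within). In replicates 3 to 5 alone, with fewer libraries, the genotype comparisons gave 628 and 1114, and the cause was not tested. With the replicate number as a block the counts were 1294, 164, 753, 492 and 702. The block changed no call of a member, and among named pathway genes only those of *Grem1* (T3 in *Thrb*-KO -0.85, genotypes -0.62 in hypothyroid and -0.66 in hyperthyroid mice). With the library set as the block only the first of these passed. TMM scaling turned the split of the difference of responses from 326 of 560 higher to 274 of 575, and that of hyperthyroid genotypes from 334 of 639 to 247 of 621. T3 in wild type, with 509 of 1244 higher, had 613 of 1215 higher with TMM factors, 718 of 1393 higher in edgeR, 756 of 1439 in DESeq2 and 650 of 1334 without hyperthyroid wild-type replicate 3.

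Of 24 tested member values, 22 kept their direction, where called, and their side of the threshold in every alternative. *Bmp2* in *Thrb*-KO with T3 passed in DESeq2 (-0.62) and in replicates 3 to 5 (-0.69), and in hyperthyroid genotypes it ranged from 0.57 to 0.78 over the libraries left out; the cause was not tested. For *Id1*, *Vwc2*, *Tll2* and *Bmpr1b* the alternatives were added after the data had been seen.

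Members with a peak numbered 6 (pituitary), 4 (cortex) and 3 (ATAC) within 100 kb (70.9%, 63% and 18.2% of all genes), and 2, 1 and 1 within 1 kb (26.5%, 22.5% and 5.08%). With only the ChAP peaks ranked above the median by p-value they numbered 2 and 2 (24.1% and 19.3% of all genes). DR4 matches in peaks near members numbered 1 (pituitary, 3.94% of all its peaks) and 1 (ATAC, 6.53%) at up to 1 mismatch, and 4 (pituitary, 55%), 1 (cortex, 41.1%) and 2 (ATAC, 62.2%) at up to 3. Wider windows and looser matches take in more by construction. Pools of 3 glands and low read counts in peaks limit precision, and *Bmp4* and *Id1* rest on 20 to 225 reads a library. *Bmp2* rests on 33 to 89 reads a library in hyperthyroid wild type and 60 to 138 in hyperthyroid *Thrb*-KO.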
